A study of Mus musculus with 12 samples.

Results

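The mRNA levels of 8 interferon-inducible GTPases were followed across 12 RNA-seq libraries of mouse hippocampal cells and tissue. The members are 5 immunity-related GTPases (IRG), Igtp, Irgm1, Irgm2, Iigp1 and Ifi47, and 3 guanylate-binding proteins (GBP), Gbp2, Gbp3 and Gbp7. They were chosen by name, with earlier results of these data known. All 8 were found by NCBI gene ID among the 27179 genes counted in each library. The study knocked down Brpf1, a chromatin reader linked to intellectual disability, with an AAV2 virus carrying GFP and a short hairpin RNA (AAV2-shBrpf1-GFP), and used AAV2-scramble-GFP as the control. All mice were of the C57BL/6 strain, and every group received a virus, so no group was free of infection. Hippocampal neurons taken from embryos (day 18 to 19 by the sample labels, although the sources differ on this age) were infected at day in vitro (DIV) 3 with either virus, and cultures were used at DIV 14 to 15. CA1 tissue came from mice injected at 4 weeks of age and collected 8 weeks after birth. Each of the 4 groups has 3 libraries. As the methods word it, the scramble virus went into the left and the shBrpf1 virus into the right CA1. On that wording virus and hemisphere cannot be told apart. The injected tissue also holds cells that the virus did not enter. The study speaks of pairs of samples and of RNA batches. It counts mice separately for each virus in its water maze and its RT-qPCR of CA1. It does not tie a pair, batch or mouse to a replicate number. The p-values therefore measure only the spread between these libraries.

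IRG and GBP proteins are GTPases that cells make after interferon exposure, above all after interferon-gamma, and that gather on the vacuoles of intracellular bacteria and parasites. Interferon-gamma signalling reaches promoters through GAS elements and through IRF1, whereas type I interferons act above all through interferon-stimulated response elements (ISRE). In the brain, microglia, astrocytes and endothelial cells are known to induce these genes, and neurons usually do so more weakly.

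The genes lie in clusters. On the GRCm38.p6 assembly, Gbp7 (chr3:142530336-142550151), Gbp3 (chr3:142560016-142573213) and Gbp2 (chr3:142620663-142638008) are neighbours on chromosome 3. Irgm1 (chr11:48865245-48871420), Ifi47 (chr11:49076587-49096987), Igtp (chr11:58199556-58207592) and Irgm2 (chr11:58214977-58222783) are on chromosome 11. Irgm1 and Ifi47 lie near each other there, as do Igtp and Irgm2, but these pairs stand well apart. Iigp1 lies on another chromosome, near other genes of the IRG family.

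RefSeq promoter windows (GRCm38.p6) were at hand for 7 of the 8 members. The ISRE core, GAAA and GAAA with any 2 bases between them, stood on either strand within the 250 bases before the start of 6 of them, as it did in 2.98% of all 32851 promoter windows. The GAS core TTCNNNGAA stood there in 3 members (Gbp7, Igtp and Irgm2) and in 7.02% of all windows. Members were counted per gene, and Gbp3 has another window without the core. The 70 bases around the core are shown for these 6 promoters. Whether the core bears on the mRNA levels was not tested. Capitals mark the ISRE core, which reads TTTC and TTTC around the 2 free bases where it lies on the opposite strand.
Igtp, chr11:58199486-58199555, forward strand: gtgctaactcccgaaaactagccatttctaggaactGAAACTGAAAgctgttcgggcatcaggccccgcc
Irgm2, chr11:58214883-58214952, forward strand: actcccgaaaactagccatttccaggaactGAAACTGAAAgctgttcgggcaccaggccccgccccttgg
Irgm1, chr11:48871421-48871490, reverse strand: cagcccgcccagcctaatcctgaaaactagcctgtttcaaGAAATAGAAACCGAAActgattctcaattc
Gbp2, chr3:142620574-142620643, forward strand: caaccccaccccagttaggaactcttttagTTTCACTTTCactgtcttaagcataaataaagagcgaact
Gbp3, chr3:142559972-142560041, forward strand: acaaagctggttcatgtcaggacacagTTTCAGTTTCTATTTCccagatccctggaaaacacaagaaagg
Gbp7, chr3:142530253-142530322, forward strand: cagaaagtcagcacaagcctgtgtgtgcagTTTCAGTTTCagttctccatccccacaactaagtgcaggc
The 3 IRG promoters hold the core on the strand of the gene and the 3 GBP promoters on the opposite strand. Irgm1 and Gbp3 each hold 2 overlapping copies, which begin 24 and 30 bases before the start in Irgm1 and 39 and 45 bases before it in Gbp3. The single copies begin 34 bases before the start in Igtp, 53 in Gbp7, 59 in Gbp2 and 64 in Irgm2. The Igtp and Irgm2 windows share 60.9% of 220 aligned bases, while every other pair among the 6 promoters with an ISRE core shares 30.0% to 38.8%. The Ifi47 window holds neither core. These are matches of letters only.

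Library depth was 18330618 to 30275304 counts. Brpf1 itself was at 23.4, 52.8 and 38.5 CPM (the count scaled to library size, with TMM factors) in scramble neurons 1 to 3 and at 27.1, 49.6 and 32.4 CPM in neurons given the hairpin. The log2 fold change was -0.06 (standard error 0.36), so a lower Brpf1 level was not seen in these counts in culture, and shBrpf1 there names the virus on the label. The study checked the knockdown by RT-qPCR in culture and in the hippocampus of injected mice, and reports a lower Brpf1 level in both. Those measurements are not among the data analysed here. In the CA1 counts Brpf1 was at 40.4, 46.4 and 36.0 CPM in scramble and at 28.0, 37.3 and 28.5 CPM in shBrpf1 libraries. The ranges overlapped (log2 fold change -0.38, standard error 0.18, unadjusted p = 0.07191 by edgeR's quasi-likelihood test). The labels name neural progenitor cells as the source of all libraries. The 9 neuron markers summed to 2932 to 7689 CPM in the cultures and 8856 to 12415 CPM in CA1, and all were detected in every library.

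To describe where the GTPases are expressed, scramble CA1 was set against scramble neurons. Levels were compared between genes per kilobase of transcript (RPKM). In scramble CA1 the order of mean RPKM was Igtp (10.1 ± 7.66, SD, n = 3), Irgm1 (7.46 ± 4.32), Gbp2 (7.21 ± 5.22), Gbp3 (4.48 ± 2.70), Irgm2 (4.44 ± 3.39), Iigp1 (2.94 ± 2.07), Ifi47 (2.14 ± 1.74) and Gbp7 (1.53 ± 0.818). No neighbours in this order differed by more than the larger of their SDs. In scramble neurons Irgm1 led with 5.12 ± 3.76 RPKM, Gbp2, Igtp, Gbp3, Gbp7 and Irgm2 had means between 0.936 and 2.04 RPKM, and Iigp1 and Ifi47 came last with 0.233 ± 0.187 and 0.0726 ± 0.0887 RPKM, and neighbours there were within their SDs too. Gbp7 had the lowest mean in CA1 and the fifth highest in culture.

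All 8 members had a higher level in scramble CA1 than in scramble neurons in the fit of all 12 libraries, with a median log2 difference of 2.01 against -0.05 over all 17254 genes tested. The difference passed the test for 2 of 8, Ifi47 and Iigp1, at 2-fold with an adjusted p under 0.05 (edgeR, Benjamini-Hochberg), where 8.51% of all genes passed as higher and 12% as lower. At an unadjusted p under 0.05 it was 3 of 8 members and 38.7% of all genes. Ifi47 (also Irgd), an IRG of the effector type, had 2, 9 and 0 counts in scramble neurons and 138, 102 and 12 counts in scramble CA1, a log2 difference of 4.68 (standard error 1.20, adjusted p = 0.01395). Iigp1 (Irga6), the effector that loads onto parasite vacuoles in mouse cells, was at 0.425, 1.40 and 0.360 CPM in scramble neurons and 13.9, 11.9 and 1.81 CPM in scramble CA1, a log2 difference of 3.61 (standard error 1.09, adjusted p = 0.03017). The 3 CA1 libraries lay above the 3 neuron libraries for both genes, and the groups overlapped for the other 6 members (41.1% of all genes did not overlap). The call of Iigp1 rested on single libraries, with an adjusted p of 0.08892 without scramble neurons 1, 0.09365 without scramble neurons 3, 0.08257 without scramble CA1 1 and 0.06836 without scramble CA1 2. With limma-voom neither gene passed (adjusted p = 0.05181 for Ifi47 and 0.09876 for Iigp1), while over all alternatives the adjusted p of Ifi47 began at 0.0001525 (DESeq2).

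The other members differed in the same direction without passing. Igtp (Irgm3), a regulator that keeps effector IRGs inactive on the cell's own membranes, had a log2 difference of 2.51 (standard error 1.02) and its partner Irgm2 one of 2.23 (standard error 1.11). Gbp2 and Gbp3, which coat pathogen vacuoles, had 1.80 (standard error 1.37) and 1.64 (standard error 1.03). Irgm1, the IRG tied to autophagy and mitochondria, had 0.54 (standard error 0.72) and Gbp7 0.29 (standard error 0.90). Of the other genes of both families, 6 of 18 tested passed as higher in CA1, among them Tgtp2 with 7.94 (standard error 1.50), Gvin1 with 5.49 (standard error 1.10) and Tgtp1 with 5.74 (standard error 1.60), and none as lower.

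Tissue and culture also differ in cell makeup. The 10 microglia markers summed to 12.5 to 43.9 CPM in scramble neurons and 278 to 567 CPM in scramble CA1, and 9 of them passed the test as higher in CA1 and 1 as lower. The 8 endothelial markers summed to 3.95 to 8.80 CPM and 207 to 238 CPM, and the 12 markers of T and NK cells to 0.386 to 0.599 CPM and 2.48 to 11.3 CPM. Astrocyte markers went the other way, with sums of 5777 to 8402 CPM in scramble neurons and 3535 to 4603 CPM in scramble CA1. Of these 8 markers, 1 passed as higher in CA1 and 3 as lower. Age, cell makeup and culture cannot be told apart here, and in bulk RNA fewer cells of a type and less RNA per cell cannot be told apart.

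**Figure D1:**
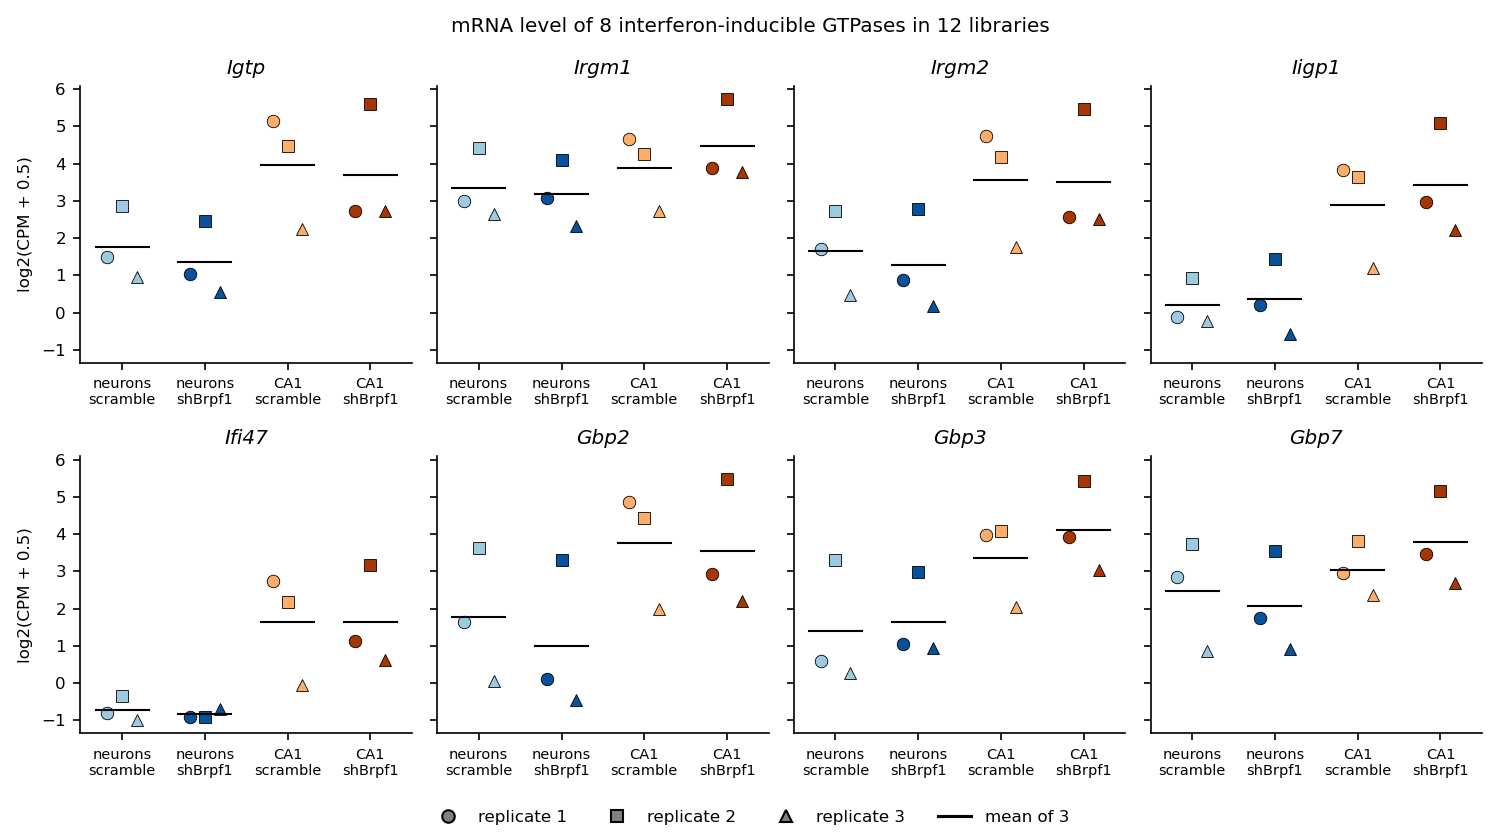
Level of each of the 8 GTPases on a log2(CPM + 0.5) axis, with 1 panel per gene and 1 point per library (circle, square and triangle are replicates 1, 2 and 3, and the line is the mean of 3). In CA1 the shBrpf1 square is the highest and the scramble triangle the lowest point of all 8 genes, and in neurons the squares of both groups lie above the other libraries in every gene but Ifi47.

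To see whether the GTPases responded to Brpf1 knockdown in vivo, shBrpf1 and scramble CA1 were compared. None of the 8 members passed the study's threshold (2-fold with an unadjusted p under 0.05), where 0.331% of the 16022 genes tested passed as higher and 0.137% as lower. None had an unadjusted p under 0.05 either (1.15% of all genes), and none passed with DESeq2, with limma-voom or with replicate number as a block (0.374% of all genes higher and 0.162% lower). The fitted differences were all above 0, with a median of 0.48 against 0.01 over all genes, but that of Igtp turned negative with another scaling (-0.015 with DESeq2 size factors). All 8 were below 0 without shBrpf1 replicate 2, with a median of -1.02.

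Among the IRGs, Igtp was at 35.1, 21.8 and 4.25 CPM in scramble libraries 1 to 3 and at 6.15, 48.5 and 6.18 CPM in shBrpf1 libraries 1 to 3. Replicate 2 of shBrpf1 was above and the other 2 were below scramble replicates 1 and 2, and the log2 fold change was 0.02 (standard error 0.99, adjusted p = 0.9984 by edgeR). Irgm2, which works with Igtp and Irgm1 as a regulator, was at 26.5, 17.5 and 2.87 CPM in scramble and at 5.40, 43.4 and 5.21 CPM in shBrpf1 libraries. Its pattern over the 6 libraries was that of Igtp, and the log2 fold change was 0.23 (standard error 1.02, adjusted p = 0.9796). Irgm1 was at 25.0, 18.8 and 6.09 CPM in scramble and at 14.3, 53.2 and 13.3 CPM in shBrpf1 libraries. Again shBrpf1 replicate 2 stood above all other libraries and the other 2 shBrpf1 libraries lay within the scramble range (log2 fold change 0.72, standard error 0.68).

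The 2 effector IRGs had the same order at lower levels. Iigp1 was at 13.9, 11.9 and 1.81 CPM in scramble and at 7.29, 33.8 and 4.16 CPM in shBrpf1 libraries, which gave 0.74 on the log2 scale (standard error 0.94). Ifi47 was at 6.25, 4.02 and 0.472 CPM in scramble and at 1.69, 8.49 and 1.05 CPM in shBrpf1 libraries, which gave 0.09 (standard error 1.00). For both genes shBrpf1 replicates 1 and 3 lay below scramble replicates 1 and 2 and above scramble replicate 3.

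The GBPs split in shBrpf1 replicate 1. Gbp2 was at 28.4, 21.2 and 3.50 CPM in scramble and at 7.17, 44.4 and 4.12 CPM in shBrpf1 libraries (log2 fold change 0.09, standard error 1.01). Gbp3, a relative of Gbp2 within the same cluster, was at 15.3, 16.5 and 3.62 CPM in scramble and at 14.7, 42.4 and 7.66 CPM in shBrpf1 libraries. Here shBrpf1 replicate 1 was close to scramble replicates 1 and 2, and the log2 fold change was 0.89 (standard error 0.74). Gbp7, a GBP with roles in host defence against vacuolar pathogens in mice, was at 7.29, 13.5 and 4.68 CPM in scramble and at 10.6, 35.6 and 5.95 CPM in shBrpf1 libraries. It had the largest log2 fold change of the members (1.05, standard error 0.69, unadjusted p = 0.1747, adjusted p = 0.9344 by edgeR), its groups overlapped, and it passed the study's threshold in the fit without shBrpf1 replicate 3 (1.46).

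The members' order over libraries was the same in all 8 genes at both ends. The highest CA1 library was shBrpf1 replicate 2 and the lowest scramble replicate 3 for 8 of 8 members, as for 3.28% of all genes tested. The groups did not separate for any member, whereas they did for 5.34% of all genes. Within a group, the members' log2 CPM had a median SD of 1.60 in scramble and 1.54 in shBrpf1 libraries, against 0.29 and 0.24 over all genes. The highest scramble library exceeded the lowest by a median of 7.90-fold over the members and 1.47-fold over all genes, and the highest shBrpf1 library by 7.99-fold and 1.38-fold. In shBrpf1 CA1, 97.2% of all genes varied less than the least variable member, and in scramble CA1 91.0% did.

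Markers of other cells differed between the same libraries. The 12 T and NK cell markers summed to 11.3, 6.07 and 2.48 CPM in scramble CA1 1 to 3 and to 2.74, 12.4 and 4.70 CPM in shBrpf1 CA1 1 to 3, and 8 to 11 of them had a count. Of the 12, only 6 had enough counts to be tested in CA1, and none passed, with 2 differences above 0 and 4 below 0. Gzmb, the granzyme of cytotoxic lymphocytes, was picked after its values were seen. It had 78, 41 and 1 counts in scramble and 8, 110 and 7 counts in shBrpf1 libraries. The 7 monocyte and macrophage markers summed to 39.3, 16.1 and 10.9 CPM in scramble and 15.1, 35.0 and 13.3 CPM in shBrpf1 libraries. Both sums were high in shBrpf1 replicate 2 and scramble replicate 1 and lowest in scramble replicate 3, as the GTPases were, except that T and NK markers in shBrpf1 replicate 1 were near their lowest. The 10 microglia markers summed to 567, 379 and 278 CPM in scramble and to 427, 451 and 326 CPM in shBrpf1 libraries. Their 2 highest libraries were also scramble replicate 1 and shBrpf1 replicate 2, and their lowest was scramble replicate 3. The 4 choroid plexus markers summed to 4868, 33.5 and 1160 CPM in scramble and to 35.2, 3159 and 209 CPM in shBrpf1 libraries, and their 2 highest libraries were those with the 2 highest GTPase sums. The part of these cells in the GTPase levels was not tested.

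**Figure D2:**
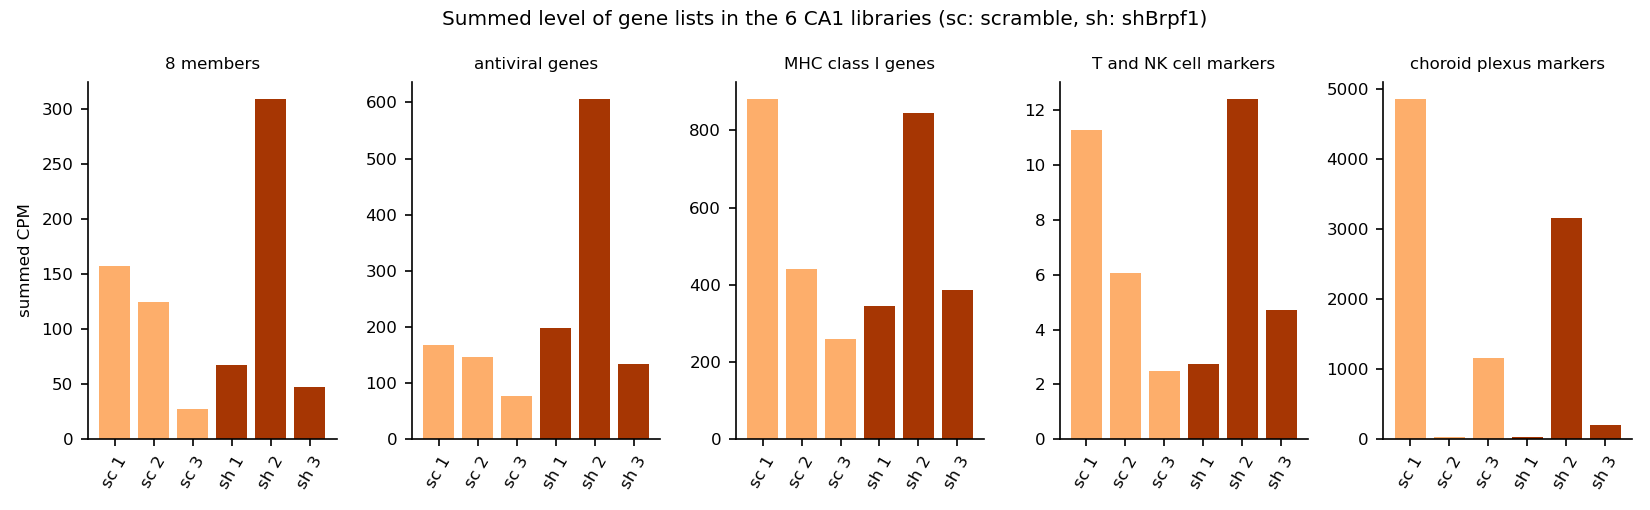
Summed CPM of the 8 GTPases and of 4 other gene lists in the 6 CA1 libraries, with bars from 0 and 1 vertical scale per list. The GTPases, the MHC class I genes and the T and NK cell markers are each highest in shBrpf1 replicate 2 and scramble replicate 1, and the antiviral sum is at 607 CPM in shBrpf1 replicate 2 and at or below 199 CPM in the other libraries.

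The other genes of the interferon system were counted in the same comparison. Of 20 other IRG and GBP genes, 17 were tested in CA1 and none passed the threshold or had an unadjusted p under 0.05, with 15 differences above 0 and a median of 0.60. F830016B08Rik had 3.42 (standard error 1.54), 9930111J21Rik2 1.38 (standard error 0.83), Gbp6 1.27 (standard error 0.94) and Gm4951 1.23 (standard error 0.94). Tgtp1 had 812, 406 and 52 counts in scramble and 46, 1318 and 30 counts in shBrpf1 libraries, a wider spread than any member showed in either group. Without shBrpf1 replicate 3, 3 of these genes passed as higher, without scramble replicate 2 it was 1, and without shBrpf1 replicate 2, 2 passed as lower.

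Antiviral genes were counted next. Of 26 such genes, induced above all by type I interferons, 25 were tested, all differences were above 0 with a median of 1.26, and 12 passed the study's threshold as higher in shBrpf1 CA1 (0.331% of all genes), although none had an adjusted p under 0.05. Mx1, a gene of the dynamin-like GTPase family, had 1, 6 and 6 counts in scramble and 37, 164 and 33 counts in shBrpf1 libraries, a log2 fold change in CA1 of 4.12 (standard error 0.84, unadjusted p = 0.001119, adjusted p = 0.9344 by edgeR). Ifit3, an antiviral protein that binds its sister Ifit1, was at 13.9, 14.8 and 9.08 CPM in scramble and 26.8, 87.6 and 20.6 CPM in shBrpf1 libraries (1.86, standard error 0.56). Both genes had all 3 shBrpf1 libraries above all 3 scramble libraries. Ifit3b and Ddx58, which encodes the RNA sensor RIG-I, had 1.79 (standard error 0.45) and 1.13 (standard error 0.39). The count of 12 depended on single libraries, with 1 gene without shBrpf1 replicate 2, 4 without scramble replicate 3 and 6 without scramble replicate 1. The difference between the antiviral list and the GTPases was not tested.

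The balance between both lists differed between libraries. The summed GTPase CPM divided by the summed antiviral CPM was 0.943, 0.852 and 0.355 in scramble CA1 1 to 3 and 0.339, 0.511 and 0.357 in shBrpf1 CA1 1 to 3. The ratio was highest in scramble replicates 1 and 2, and scramble replicate 3 lay within the shBrpf1 range. These sums are not scaled by length, so the ratio compares libraries and not genes. In neurons the ratio stayed between 0.289 and 0.479.

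**Figure D3:**
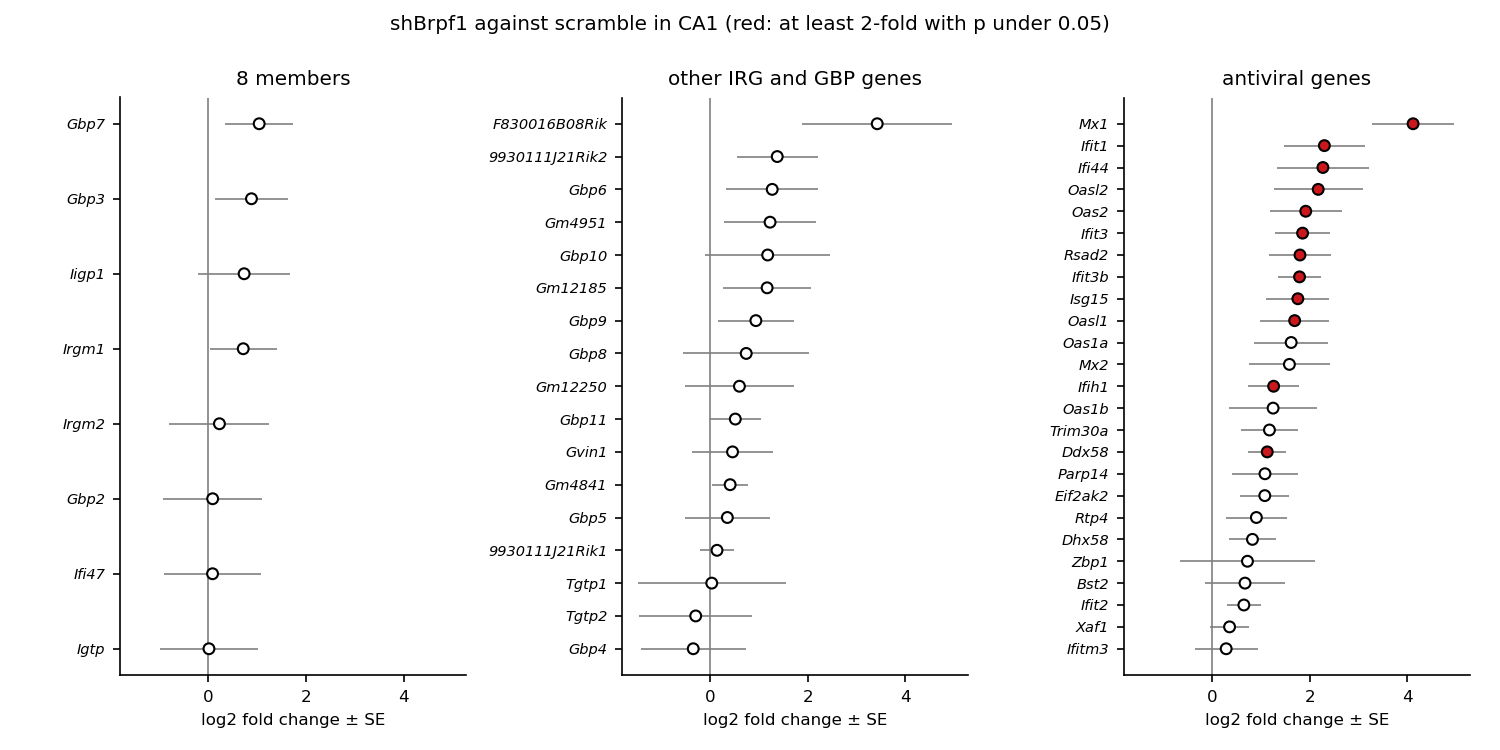
Log2 fold change of shBrpf1 against scramble in CA1 (points, edgeR) with its standard error (bars) for the 8 GTPases, the other tested IRG and GBP genes and the tested antiviral genes. Filled red points passed the study's threshold: 12 of 25 antiviral genes, 0 of 8 members and 0 of 17 other family genes.

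Upstream, the ligands were barely seen. None of the 11 interferon genes had enough counts to be tested, and Ifng had 3, 0 and 0 counts in scramble CA1 and 0, 2 and 1 counts in shBrpf1 CA1. None of the 8 receptor and kinase genes tested passed, and the interferon-gamma receptor chains Ifngr1 and Ifngr2 had 0.06 (standard error 0.20) and -0.35 (standard error 0.16). None of 12 transcription factors passed (8 of 12 above 0, median 0.41). Irf1 had -0.08 (standard error 0.32) and Irf7, the amplifier of type I interferon, 1.40 (standard error 0.90).

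Of genes next to the GTPases in the pathway, Usp18, which damps type I signalling, passed as higher with 2.07 (standard error 0.81, unadjusted p = 0.03297), the 1 call among 7 feedback inhibitors. Cxcl10, a chemokine for T cells, passed with 3.32 (standard error 0.66, unadjusted p = 0.0009635), the 1 call among 3 chemokines tested. None of 12 MHC class I and antigen processing genes passed (median 0.02). None of the 10 autophagy conjugation genes through which IRGs and GBPs are targeted to vacuoles passed, and 9 of them had differences below 0 (median -0.17). None of 5 ubiquitin partners passed.

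In cultured neurons the same comparison was made for 7 members, since Ifi47 did not reach 10 counts in 3 libraries (2, 9 and 0 counts in scramble and 1, 1 and 2 counts in shBrpf1 neurons). None of the 7 passed the study's threshold, which 0.0498% of the 16066 genes tested passed as higher and 0.00622% as lower. None had an unadjusted p under 0.05 (0.0747% of all genes), and none passed with DESeq2 or limma-voom. These fits took no account of replicate number, and the fit that did, in which Gbp2 passed, is given below. The differences were below 0 for 6 of 7 members, with a median of -0.23 against -0.01 over all genes. Because both libraries numbered 2 were the highest, leaving out only 1 of them turned all 7 members to its side, above 0 without scramble replicate 2 (median 0.61) and below 0 without shBrpf1 replicate 2 (median -1.49). Without both, 4 of the 5 members still tested were below 0 (median -0.57). No member's groups were separate (1.61% of all genes were).

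Irgm1 was the most abundant member in culture, at 7.42, 21.01 and 5.75 CPM in scramble neurons 1 to 3 and at 8.00, 16.7 and 4.52 CPM in shBrpf1 neurons 1 to 3 (log2 fold change -0.22, standard error 0.66). Gbp7 was at 6.73, 12.7 and 1.32 CPM in scramble and at 2.84, 11.1 and 1.37 CPM in shBrpf1 neurons (-0.43, standard error 0.98). In both genes the libraries numbered 2 were the highest of each virus. Igtp was at 2.32, 6.82 and 1.44 CPM in scramble and at 1.56, 4.99 and 0.973 CPM in shBrpf1 neurons (-0.48, standard error 0.83). Gbp2 was at 2.63, 11.9 and 0.539 CPM in scramble and at 0.588, 9.47 and 0.229 CPM in shBrpf1 neurons (-0.54, standard error 1.49). These 2 genes were lower in the shBrpf1 library of every number, while the ranges of both viruses overlapped. Gbp3 was at 1.00, 9.47 and 0.719 CPM in scramble and at 1.56, 7.38 and 1.43 CPM in shBrpf1 neurons (-0.11, standard error 1.14), and Irgm2 at 2.78, 6.18 and 0.899 CPM and at 1.35, 6.37 and 0.630 CPM (-0.23, standard error 1.00). Iigp1, the 1 member with a difference above 0, stayed at or below 2.22 CPM in all 6 libraries (0.49, standard error 0.98).

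The neuron libraries were ordered by replicate number. Both libraries numbered 2 were the 2 highest for 7 of 7 members (20.9% of all genes), and both numbered 3 were the 2 lowest for 6 of 7 (22.8% of all genes). The exception was Gbp3, in which scramble replicate 1 was lower than shBrpf1 replicate 3. Libraries of 1 number deviated together over all genes in neurons, so a fit with replicate number as a block was made. In it Gbp2 passed the study's threshold as lower, at -1.09 on the log2 scale (standard error 0.42, unadjusted p = 0.03907, adjusted p = 0.8473 by edgeR), where 0.156% of all genes passed as higher and 0.162% as lower. The differences within numbers 1, 2 and 3 were -2.02, -0.33 and -1.002 for Gbp2 and -0.55, -0.45 and -0.53 for Igtp, on the log2 scale. Without shBrpf1 replicate 2 Gbp2 passed with -3.59, and without scramble replicate 2 its difference was 1.12.

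**Figure D4:**
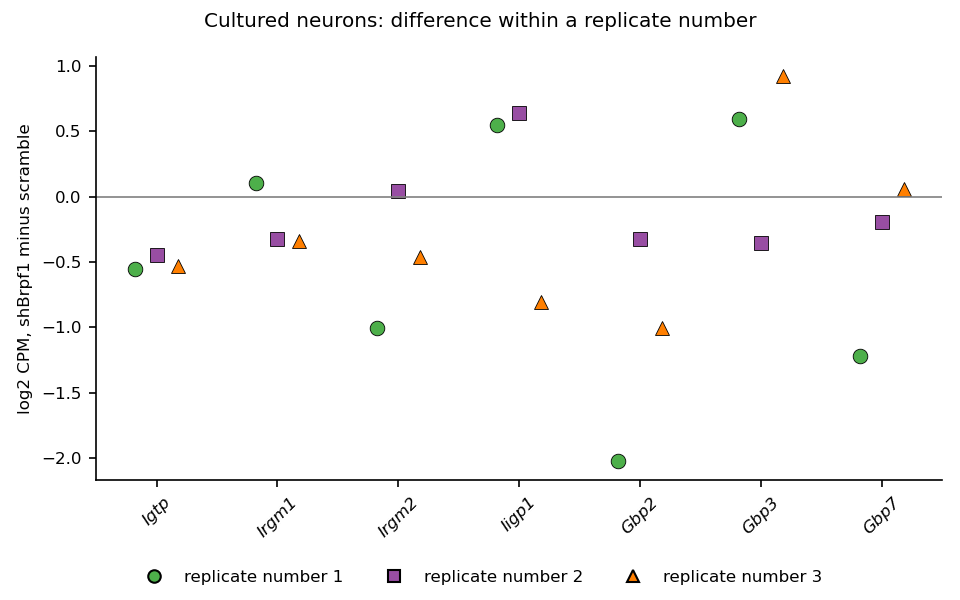
Difference in log2 CPM between the shBrpf1 and the scramble library of the same number in cultured neurons, for the 7 members tested (green circles, purple squares and orange triangles are numbers 1, 2 and 3). All 3 points lie below 0 for Igtp and Gbp2, and the other 5 genes have points on both sides of 0.

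Some immune markers moved with number in culture too. The 7 monocyte and macrophage markers summed to 18.0 and 14.6 CPM in the scramble and shBrpf1 libraries numbered 2 and to 0.229 to 1.43 CPM in the other 4. The macrophage lysozyme gene Lyz2 had 497 and 381 counts in the libraries numbered 2 and 1 to 27 counts in the others. It supplied most of that sum, since all 7 markers together had 566 and 432 counts in the libraries numbered 2. Of the 7 markers, 4 were detected in those libraries, and only Lyz2 had enough counts to be tested in neurons. Microglia markers summed to 43.9 and 33.7 CPM in the libraries numbered 2 and 12.5 to 20.9 CPM in the others, and neuron markers were lowest in those numbered 2 (2932 and 3820 CPM). The cultures also held much astrocyte RNA. Astrocyte markers summed to 6739, 8402 and 5777 CPM in scramble neurons 1 to 3 and to 4062, 6985 and 6239 CPM in shBrpf1 neurons 1 to 3. Both libraries numbered 2 were again the 2 highest. The part of these cells was not tested.

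The wider interferon lists gave no call in neurons. None of the 9 other IRG and GBP genes tested passed (median -0.35), nor any of 19 antiviral genes (median -0.17), and all 13 MHC class I and antigen processing genes had differences below 0 (median -0.43) without a call. Of the 12 antiviral genes that passed in CA1, 8 were tested in neurons and none passed, with Ifit3 at -0.17 (standard error 0.85) and Ddx58 with -0.14 (standard error 0.60).

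Whether the difference between the viruses was itself different in CA1 and in neurons was tested as an interaction over all 12 libraries. None of 8 members passed the 2-fold threshold at an unadjusted p under 0.05, nor had an unadjusted p under 0.05 (0.336% of all genes), where 0.214% of 17254 genes passed as higher in CA1 and 0.0869% as lower. All 8 differences were above 0, with a median of 0.77 against 0.02 over all genes, but 7 of them were below 0 in at least 1 fit that left out a library, Gbp7 being the exception. The largest were those of Gbp7 (1.47, standard error 1.27) and Ifi47 (1.29, standard error 1.70), and the smallest that of Iigp1 (0.24, standard error 1.43). With replicate number as a block in both experiments, although the numbers did not pair the CA1 libraries, Gbp7 passed with 1.28 (standard error 0.42, unadjusted p = 0.01501), where 0.695% of all genes passed as higher and 0.249% as lower, and it also passed without shBrpf1 neurons 2 (2.74). Of 25 antiviral genes in the interaction without the block, 24 were above 0 (median 1.76) and 1 passed. It was Mx1 with 4.71 (standard error 1.12, unadjusted p = 0.001261 by edgeR). For the other antiviral genes, a call in CA1 without a call in neurons is not a difference that passed a test.

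The members moved together across libraries. Over the 12 libraries, with each experiment centred on its mean, the 21 pairs of the 7 members tested in both experiments had Pearson correlations of log2 CPM from 0.79 to 0.98 (median 0.89). The closest pair was Igtp and Irgm2 (0.98), neighbours that also share promoter and transcript sequence, followed by Irgm1 and Iigp1 (0.97), which lie on different chromosomes, and Irgm2 and Gbp2 (0.96). The loosest was Igtp and Gbp7 (0.79), with 0.72 in CA1 and 0.94 in neurons. Of 15031 other genes, those most like the members' mean were Gbp5 (0.97), Gbp6 (0.97), Slc31a2 (0.96), Traf7 (0.96), Apobec3 (0.95), Nlrc5 (0.95), Parp12 (0.94), Psmb9 (0.94), Parp10 (0.94) and Tap1 (0.94). Gbp5 and Gbp6 belong to the same family, Nlrc5 switches on MHC class I genes, and Psmb9 and Tap1 make and carry the peptides that MHC class I presents. Of the 50 genes most like the members, 18 belong to the lists described here. The points share libraries, depth and cell makeup, so these values describe the 12 libraries only.

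Reads of near-identical genes could have been split between them. Of the 50-base words in the transcripts of each member, 12.7% of those of Gbp7 occur in another gene, most of them (10.5%) in the pseudogene Gm43802, which overlaps 637 of its exonic bases. For Igtp it was 11.8%, all shared with Irgm2, for Irgm2 7.83%, for Ifi47 4.81%, for Gbp3 3.75%, for Gbp2 2.03%, for Iigp1 1.69% and for Irgm1 0.379%. How such reads were counted is not stated, so the levels of Gbp7, Igtp and Irgm2 are the least certain.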

How the data were processed

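RNA of 12 libraries was sequenced in paired-end mode. The methods state that the authors trimmed the reads, used STAR for alignment to the mouse genome and took the counts of known genes from StringTie. The labels give mm9 as the build and the methods a release number. Versions, strand setting and the treatment of reads with several alignments are not given in the sources used here. The deposited tables hold raw read counts, not normalized, with a length for each of 27179 NCBI gene IDs. RefSeq (GRCm38.p6) named 25275 IDs and GENCODE M21 named 17, and the 1887 without a name held 2.44% of the counts.

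Counts were tested with edgeR 4.0.16 (R 4.3.3), with TMM scaling, a filter of 10 counts or more in 3 or more of the libraries fitted, a robust quasi-likelihood fit and 1 mean per group. The standard error is the size of the log2 fold change divided by the square root of F. The threshold of the study asks for a 2-fold change in either direction and an unadjusted p under 0.05. Benjamini-Hochberg adjusted values over all genes tested are given too, and scramble CA1 against scramble neurons was called at 2-fold with an adjusted p under 0.05. CPM uses the TMM factors of all 12 libraries, and RPKM is CPM per kilobase of the deposited length. Alternatives were DESeq2 size factors, DESeq2 1.42.0 with its own Wald test, voom weights in limma 3.58.1, no filter, at least 50 counts, a joint fit, a replicate block and leaving out each library. Leaving out both libraries of a number, and the counts of the other lists under every alternative, were added after seeing the data.

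Whether replicate numbers pair the libraries was checked by correlating, over genes, departures from the group mean. In neurons libraries of the same number of the labels correlated at 0.519, 0.866 and 0.826, and in CA1 at -0.321, 0.139 and 0.348, so numbers were taken as pairs in neurons only. All 8 members are named, and from each other list at most the 4 genes with the lowest p in CA1, with all ligands and transcription factors allowed. The values of 1 transcription factor are not reported here. Tgtp1, Tgtp2, Gvin1, Ifngr1 and the markers Gzmb and Lyz2 were chosen after their values were seen. The members and the lists were chosen with earlier results of these data known. The correlation with the members used log2 CPM with a prior count of 2. The edgeR step was tested on simulated data with known changes. Plots use matplotlib 3.10.9 (Python 3.11.15).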

Additional observations from a re-analysis of the deposited data

How the results depend on the processing

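The groups hold 3 libraries each and the members vary several-fold within a group, which limits every comparison here, and counts under 10 limit Ifi47 in neurons. No member passed in CA1 or in neurons under DESeq2 size factors, the DESeq2 Wald test, limma-voom, either filter or the joint fit. With the replicate block 1 member passed in neurons (Gbp2), 1 in the interaction (Gbp7) and none in CA1. In scramble CA1 against scramble neurons 0 members passed with limma-voom.

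In CA1, the log2 fold change of Igtp was -0.015 with DESeq2 size factors, -0.018 with the DESeq2 Wald test, -0.23 with limma-voom, -0.03 without a filter, -0.0074 in the joint fit, -0.18 with the replicate block and -0.028 without both libraries numbered 3. That of Gbp2 was -0.19 with limma-voom and -0.18 with the replicate block. Without both libraries numbered 2 the values were -0.16 (Irgm1), -1.28 (Ifi47), -1.66 (Igtp), -1.46 (Irgm2), -0.44 (Iigp1) and -1.49 (Gbp2). In neurons Gbp3 was at 0.31 with limma-voom, 0.30 with the replicate block and 0.77 without both libraries numbered 2.

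Leaving out 1 library at a time, 0 to 1 members passed in CA1, in neurons and in the interaction, and 1 to 3 in scramble CA1 against scramble neurons. In CA1 the 1 call was Igtp (lower, without shBrpf1 replicate 2) or Gbp7 (higher, without shBrpf1 replicate 3). The ranges in CA1 were -0.25 to 1.11 (Irgm1), -1.37 to 0.73 (Ifi47), -1.71 to 0.63 (Igtp), -1.54 to 0.82 (Irgm2), -0.67 to 1.19 (Iigp1), -0.021 to 1.58 (Gbp7), -0.063 to 1.30 (Gbp3) and -1.63 to 0.59 (Gbp2), and each lowest value is the one without shBrpf1 replicate 2. In neurons they were -0.87 to 0.59 (Irgm1), -1.49 to 0.44 (Igtp), -1.73 to 0.61 (Irgm2), -0.79 to 1.40 (Iigp1), -1.72 to 0.35 (Gbp7), -1.34 to 2.02 (Gbp3) and -3.59 to 1.12 (Gbp2), lowest without shBrpf1 replicate 2 and highest without scramble replicate 2. In the interaction they were -0.043 to 1.56 (Irgm1), -0.18 to 1.93 (Ifi47), -1.23 to 1.47 (Igtp), -1.32 to 1.93 (Irgm2), -1.16 to 1.49 (Iigp1), -1.13 to 2.21 (Gbp3) and -1.10 to 3.63 (Gbp2). In scramble CA1 against scramble neurons Gbp7 ranged from -0.25 to 1.06.

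The 12 antiviral calls in CA1 became 5 with limma-voom, 6 in the joint fit and 16 with the DESeq2 Wald test, and 1 to 16 when 1 library was left out. The causes were not tested.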
